A study of Mus musculus with 11 samples.

Results

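The 10 genes described here belong to interleukin-1 and related keratinocyte cytokine signalling and were followed in sorted mouse epidermal cells. They were picked by gene name, by a rule without a threshold on their values but with earlier results of these data known. They comprise the ligands *Il1a*, *Il1b*, *Il33* and *Il18*, the antagonist *Il1rn*, the receptors *Il1r1* and *Il1r2*, both ligands of the CSF1 receptor, *Il34* and *Csf1*, and *Tslp*. All 10 were found among the 55536 Ensembl genes of the files, and all 10 passed the filter on low counts that left 20307 genes. RNA was sequenced from 4 sorted populations of dorsal skin epidermis: tdT+CD49f+CD34+ cells (3 libraries), tdTneg CD49f+CD34+ cells (3), tdT+CD49f+CD34+SCA-1+ cells (3) and tdTneg CD49f+CD34+SCA-1+ cells (2). The CD49f+CD34+ sorts were negative for SCA-1. Every library came from male CD4Cre R26-tdT mice on a C57Bl6/N background, with the cells of 2 mice pooled, at an age of 29 weeks for replicate 1 and 32 weeks for replicates 2 and 3. In these mice Cre under control of *Cd4* switches on the red reporter tdT for good, so tdT+ marks any cell that expressed Cre itself or descends from such a cell, and tdTneg cells of the same mice carry the same alleles.

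Keratinocytes hold preformed interleukin-1α and interleukin-33 that they release on damage, and they answer interleukin-1 through the receptor encoded by *Il1r1*. The antagonist encoded by *Il1rn* occupies that receptor without signalling, and *Il1r2* encodes a decoy that binds interleukin-1 without passing a signal on. *Il34*, made by keratinocytes, maintains Langerhans cells through the CSF1 receptor, while *Csf1* is the ligand used by most other macrophages.

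The libraries held 17409131 to 46542177 counts on genes, and values below are counts divided by the TMM-normalized library size (CPM) unless stated otherwise. Of the sort markers, *Cd34* had 468 to 1130.1 CPM in the CD49f+CD34+ and 22.3 to 383 CPM in the CD49f+CD34+SCA-1+ libraries, and *Ly6a*, which encodes SCA-1, had 2.46 to 59.2 and 153 to 294 CPM. *Krt14*, a basal keratin, had 2615 to 14634 CPM throughout. The library labelled tdT+CD49f+CD34+ replicate 2 stood apart: the 1 row of the files outside the Ensembl genes was at 2.05 CPM of the total there, against 133 to 307 in the other tdT+ and 2.54 to 4.89 in the tdTneg libraries. It also had the highest *Ly6a* of the CD49f+CD34+ libraries, 59.2 CPM. Results that turn on it are given with and without it. RNA of other cells was present, with 1.61 to 229 CPM of the leukocyte gene *Ptprc*, and in such pools fewer cells of a type cannot be told apart from less RNA per cell. The labels and methods used here do not say that counting used strand, and 11.2% of the exon bases of *Il1a*, 4.95% of those of *Il34* and 1.31% of those of *Il1b* also lie in exons of other genes, so part of their reads could belong to those.

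**Figure D1:**
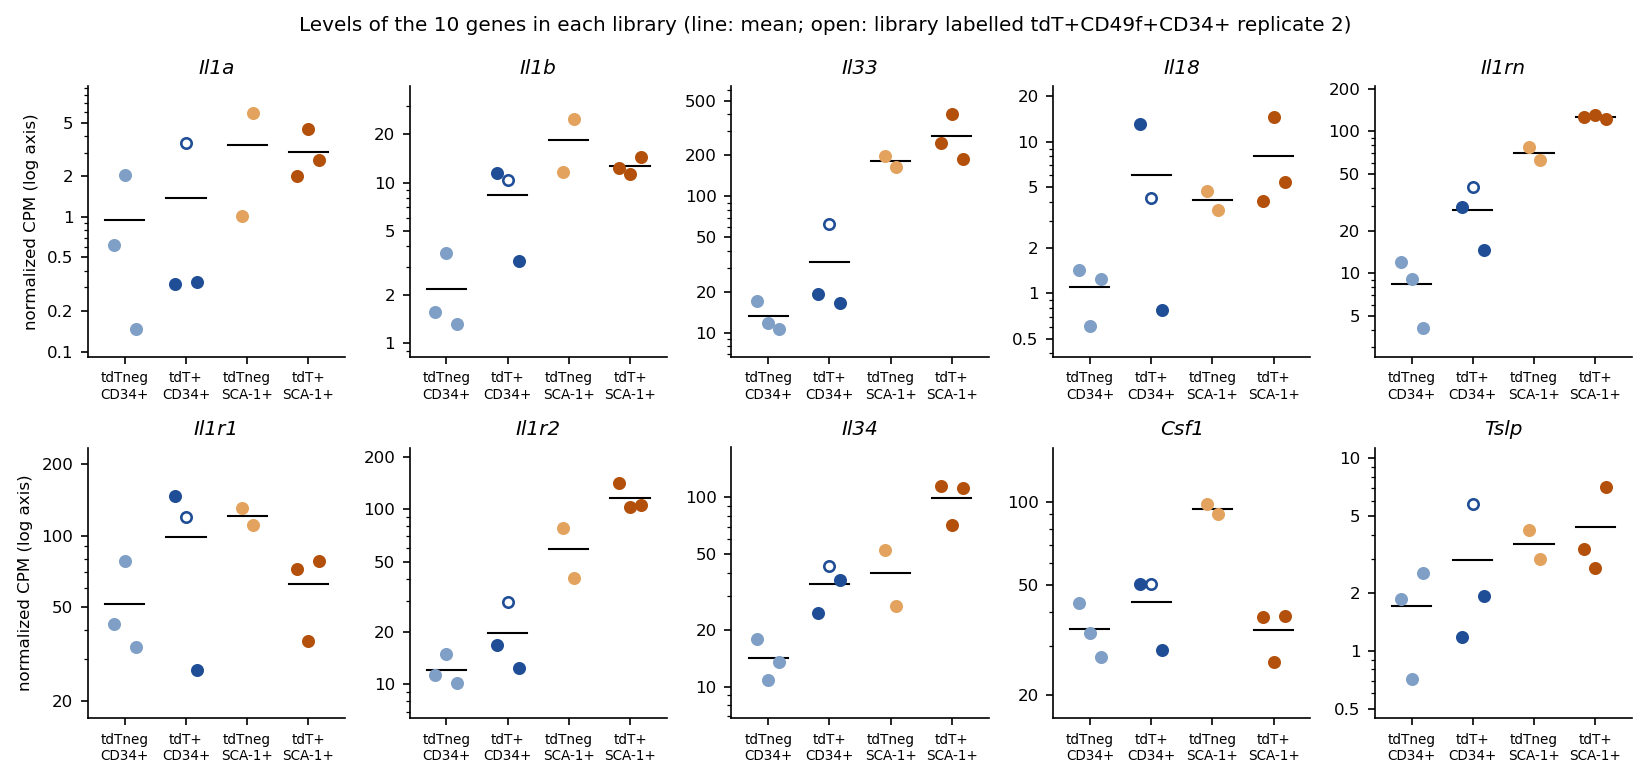
Normalized CPM on a log axis for each of the 10 genes in all 11 libraries, grouped by sorted population, where each point is a library, the line is the group mean and the open point is the one labelled tdT+CD49f+CD34+ replicate 2. For *Il33*, *Il1rn* and *Il1r2* all 5 CD49f+CD34+SCA-1+ libraries lie above all 6 CD49f+CD34+ libraries, and for *Csf1* the 2 tdTneg CD49f+CD34+SCA-1+ libraries, at 90.1 and 98.3 CPM, stand above all others.

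The first question was how the 10 genes differ between the population carrying SCA-1 and the SCA-1neg one. CD49f+CD34+ is the surface phenotype by which mouse hair follicle bulge cells are sorted. CD49f+CD34+SCA-1+ cells held more RNA of these genes, with 534 to 804 CPM summed over the 10 against 105 to 371 CPM. When the tdT+ and the tdTneg difference were averaged, *Il33*, *Il1rn*, *Il1r2*, *Il1b* and *Il34* rose, by 2.82-fold to 10.8-fold, and none fell. A gene was called at an edgeR adjusted p under 0.05 with a log2 fold change beyond 1 in size. These 5 of 10 called genes compare with 11.6% called among all genes tested and 4.77% called higher, and 3 of them, *Il33*, *Il1rn* and *Il1r2*, lay higher without overlap of any library, as did 5.1% of all genes. In this average all 10 log2 fold changes were above 0, with a median of 1.5 against -0.09 over all genes tested.

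The promoter sequences of 4 members are shown: of *Il33*, *Il1rn* and *Il1b*, which rose between the populations, and of *Csf1*, which rose within tdTneg cells and not as the average. RefSeq entries were found for 8 of the 10 genes, without *Il34* and *Tslp*. Each sequence runs 5′ to 3′ on the strand of its gene in GRCm38.p6, up to the base before the RefSeq start or, for *Il1rn*, before the first base that Ensembl places in an exon. Where RefSeq had several starts, 2 for *Il33*, 3 for *Il1rn* and 2 for *Il1r1*, the 5′-most was taken. Which start these cells used was not tested. Capitals mark matches, on either strand, to an AP-1 site (TGANTCA), the NF-kB consensus, a TATA box (TATAAA), a CRE (TGACGTCA) or the ISRE consensus, and no matches overlapped each other.
*Il33*, chr19:29924863-29925112, plus strand: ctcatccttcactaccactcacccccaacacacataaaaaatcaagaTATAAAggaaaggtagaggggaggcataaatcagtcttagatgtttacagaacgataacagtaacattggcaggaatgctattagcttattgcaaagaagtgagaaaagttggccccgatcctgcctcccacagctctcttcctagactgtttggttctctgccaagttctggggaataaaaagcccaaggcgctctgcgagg
*Il1rn*, chr2:24336610-24336852, plus strand: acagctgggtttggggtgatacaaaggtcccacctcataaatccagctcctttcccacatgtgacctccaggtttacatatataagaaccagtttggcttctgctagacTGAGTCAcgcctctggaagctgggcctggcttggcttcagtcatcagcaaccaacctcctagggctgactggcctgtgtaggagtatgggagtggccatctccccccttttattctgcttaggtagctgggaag
*Il1b*, chr2:129371140-129371389, minus strand: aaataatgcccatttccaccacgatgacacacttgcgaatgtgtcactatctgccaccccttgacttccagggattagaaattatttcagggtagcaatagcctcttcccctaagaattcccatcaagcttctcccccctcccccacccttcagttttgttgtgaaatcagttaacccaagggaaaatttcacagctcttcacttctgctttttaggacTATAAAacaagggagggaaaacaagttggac
*Csf1*, chr3:107760470-107760719, minus strand: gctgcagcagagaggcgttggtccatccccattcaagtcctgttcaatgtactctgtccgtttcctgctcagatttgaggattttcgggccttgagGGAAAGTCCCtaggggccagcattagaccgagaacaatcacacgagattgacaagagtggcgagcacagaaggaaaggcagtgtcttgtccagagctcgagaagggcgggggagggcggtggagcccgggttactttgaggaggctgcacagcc

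In these windows the TATA box letters began 203 bases before the start of *Il33* and 31 bases before that of *Il1b*. *Il1rn* held an AP-1 match 141 bases and *Csf1* an NF-kB match 154 bases before the start. Of the other genes with an entry, *Il1a* held an AP-1 and a TATA match, *Il18* a TATA match, and *Il1r1* no match. The window of *Il1r2* lies inside the Ensembl gene, with 117 of its 250 bases in exons, and is left out here. Of 32817 promoter windows of 250 bases, 6.75% held the AP-1 letters, 7.25% the NF-kB consensus, 12.4% the TATA box, 1.55% the CRE and 2.97% the ISRE. A match describes letters only.

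*Il33* (ENSMUSG00000024810, chromosome 19 of GRCm38, 29925114 to 29960718, plus strand) encodes an alarmin stored in the nucleus. Its levels were 247, 404 and 187 CPM in tdT+ and 198 and 165 CPM in tdTneg CD49f+CD34+SCA-1+ cells, against 19.1, 62.9 and 16.5 CPM in tdT+ and 17.2, 11.7 and 10.6 CPM in tdTneg CD49f+CD34+ cells. The populations did not overlap, as for 10.8% of all genes in either direction, and the highest CD49f+CD34+ value came from replicate 2 of the tdT+ sort, the library that stood apart. The log2 fold change was 3.44 (standard error 0.38, edgeR adjusted p = 0.000409), and 3.88 (standard error 0.26, edgeR adjusted p = 0.000136) without that library. The order of group means was tdT+CD49f+CD34+SCA-1+ (279 ± 112 CPM, SD, n = 3), tdTneg CD49f+CD34+SCA-1+ (182 ± 23.6, SD, n = 2), tdT+CD49f+CD34+ (32.8 ± 26.1, SD, n = 3) and tdTneg CD49f+CD34+ (13.2 ± 3.51, SD, n = 3). The first pair of groups overlapped, as did the last pair.

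*Il1b* (ENSMUSG00000027398, chromosome 2, 129364570 to 129371139, minus strand), the secreted interleukin-1β, was lower than *Il33* per kilobase of exon in every library. It had 12.4, 11.4 and 14.4 CPM in tdT+ and 11.6 and 24.9 CPM in tdTneg CD49f+CD34+SCA-1+ cells, and 11.5, 10.4 and 3.25 CPM in tdT+ and 1.57, 3.65 and 1.32 CPM in tdTneg CD49f+CD34+ cells. Its rise came with an overlap, since tdT+CD49f+CD34+ replicate 1 reached the values of the CD49f+CD34+SCA-1+ libraries (log2 fold change 1.83, standard error 0.40, edgeR adjusted p = 0.0117). Without tdTneg CD49f+CD34+SCA-1+ replicate 2, which had the highest value, the log2 fold change was 1.54 and no longer called (edgeR adjusted p = 0.0627). The 8 Langerhans and myeloid cell markers summed to 284 to 357 CPM in tdT+ and 479 to 1057 CPM in tdTneg CD49f+CD34+SCA-1+, and to 48.3 to 571 CPM in tdT+ and 11.1 to 122 CPM in tdTneg CD49f+CD34+ libraries. None of the 8 was at 0 in any library but tdT+CD49f+CD34+ replicate 3, where 1 was, and 4 of them were called higher in CD49f+CD34+SCA-1+ cells. Their part in the values of *Il1b* was not tested.

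The remaining ligands of the interleukin-1 family among the 10 did not pass the test. *Il1a*, whose product acts on the same receptor as interleukin-1β, was the lowest of the 10 per kilobase of exon in each group and rested on 6 to 140 counts per library. It ranged from 1.01 to 5.86 CPM in CD49f+CD34+SCA-1+ and from 0.146 to 3.53 CPM in CD49f+CD34+ libraries (log2 fold change 1.49, standard error 0.86, edgeR adjusted p = 0.249). *Il18*, which encodes an interferon-γ inducing cytokine, ranged from 3.52 to 14.6 and from 0.608 to 13.2 CPM (1.15, standard error 0.63, edgeR adjusted p = 0.228). The 95% confidence intervals of the log2 fold change ran from -0.41 to 3.40 and from -0.25 to 2.56. Over the omissions of each library the log2 fold change of *Il18* ranged from 0.80 to 1.79. Leaving out the library labelled tdT+CD49f+CD34+ replicate 2 gave *Il1a* a value of 2.54 (standard error 0.80, edgeR adjusted p = 0.0569), and without tdTneg CD49f+CD34+SCA-1+ replicate 2 it was 0.63 (edgeR adjusted p = 0.736).

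*Il1rn* (ENSMUSG00000026981, chromosome 2, 24336853 to 24351494, plus strand) is the receptor antagonist. It had 127, 130.4 and 122 CPM in tdT+ and 77.4 and 63.0 CPM in tdTneg CD49f+CD34+SCA-1+ cells, against 29.1, 40.5 and 14.6 CPM in tdT+ and 12.1, 9.17 and 4.12 CPM in tdTneg CD49f+CD34+ cells. The populations did not overlap, and the log2 fold change was 2.61 (standard error 0.31, edgeR adjusted p = 0.000514). The 2 suprabasal keratins, both called higher in CD49f+CD34+SCA-1+ cells, summed to 2541 to 8748 CPM in these and to 164 to 3264 CPM in CD49f+CD34+ libraries. Their part in the values of *Il1rn* was not tested.

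Of the interleukin-1 receptors the decoy rose and the signalling receptor did not pass the test. *Il1r2* (ENSMUSG00000026073, chromosome 1, 40074079 to 40125231, plus strand), the decoy, had 141, 103 and 105 CPM in tdT+ and 78.5 and 40.7 CPM in tdTneg CD49f+CD34+SCA-1+ cells. In CD49f+CD34+ cells it had 16.8, 29.6 and 12.5 CPM with tdT and 11.3, 14.9 and 10.2 CPM without. The populations did not overlap (log2 fold change 2.43, standard error 0.26, edgeR adjusted p = 0.000361). *Il1r1* (ENSMUSG00000026072, chromosome 1, 40225080 to 40317257, plus strand), the signalling receptor, ranged from 35.9 to 131 CPM in CD49f+CD34+SCA-1+ and from 27.0 to 147 CPM in CD49f+CD34+ libraries. Its log2 fold change was 0.29 (95% confidence interval -0.62 to 1.20, edgeR adjusted p = 0.668).

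*Il34* (ENSMUSG00000031750, chromosome 8, 110741829 to 110805924, minus strand) had 114, 71.6 and 112 CPM in tdT+ and 52.4 and 26.7 CPM in tdTneg CD49f+CD34+SCA-1+ cells. In CD49f+CD34+ cells it had 24.4, 43.4 and 36.8 CPM with tdT and 18.0, 10.9 and 13.6 CPM without. The populations overlapped across tdT status but not within it, and the log2 fold change was 1.5 (standard error 0.24, edgeR adjusted p = 0.00223). *Csf1* (ENSMUSG00000014599, chromosome 3, 107741048 to 107760469, minus strand) differed by 0.56 (standard error 0.19, edgeR adjusted p = 0.0632) and is taken up again below. *Tslp*, which encodes an epithelial cytokine acting on dendritic cells and lymphocytes, ranged from 2.67 to 7.07 and from 0.714 to 5.78 CPM (0.82, standard error 0.52, edgeR adjusted p = 0.296).

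Markers of other cells rose with the population too. All 4 leukocyte and all 7 T cell markers were called higher in CD49f+CD34+SCA-1+ cells. The T cell markers summed to 432 to 1084 CPM in tdT+ and 153 to 163 CPM in tdTneg CD49f+CD34+SCA-1+, and to 39.5 to 82.6 CPM in tdT+ and 22.5 to 29.6 CPM in tdTneg CD49f+CD34+ libraries. For the leukocyte markers these ranges were 260.3 to 477, 88.4 to 197, 51.4 to 108 and 6.22 to 33.2 CPM. In the average over tdT status 0 genes of the endothelial, fibroblast and dissociation response lists were called. The 4 endothelial markers moved in opposite directions within tdT+ cells (median log2 fold change -1.94, 0 called) and within tdTneg cells (4.51, 1 called, 4 without overlap). In the average, of 3 neutrophil markers *S100a9* was called higher and of 4 melanocyte markers 2 lower. Mast cell markers were at or near 0, with 0 to 1.13 CPM summed over 3 genes. None of the 10 cytokine genes was fitted with these sums as a term, so their part in the differences was not tested.

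**Figure D2:**
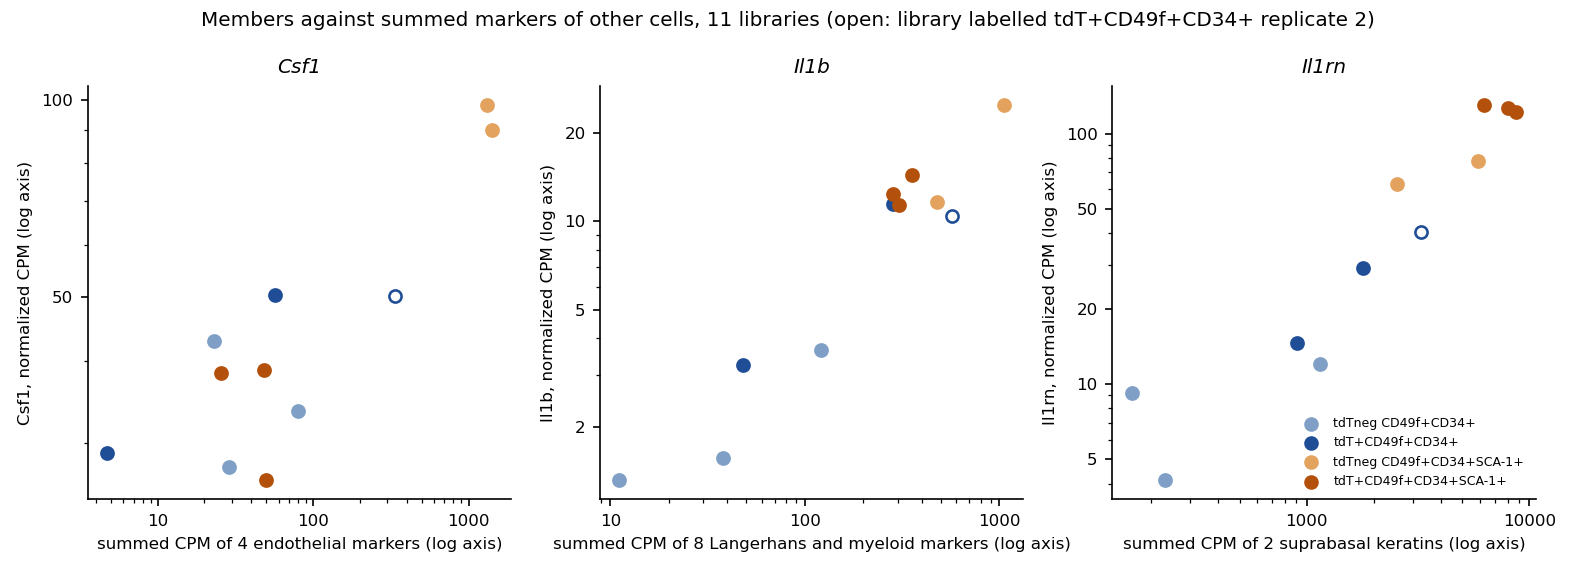
*Csf1*, *Il1b* and *Il1rn* in normalized CPM (vertical, log axes) against the summed CPM of 4 endothelial markers, 8 Langerhans and myeloid cell markers and 2 suprabasal keratins (horizontal, log axes), with 1 point per library coloured by group and the one labelled tdT+CD49f+CD34+ replicate 2 open. The 2 tdTneg CD49f+CD34+SCA-1+ libraries lie at the top right for *Csf1*, with endothelial sums of 1310 and 1414 CPM.

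Within tdT+ cells, *Il1rn*, *Il1r2*, *Il33* and *Il34* rose in CD49f+CD34+SCA-1+ cells, 4 of 10 where 8.45% of all genes were called and 2.91% called higher. These 4 were also the members without overlap, where 30.4% of all genes had none and 15.4% none with higher values. Their log2 fold changes were 2.17, 2.57, 3.09 and 1.51, with edgeR adjusted p-values from 0.00192 to 0.0146. Leaving out the library labelled tdT+CD49f+CD34+ replicate 2 gave 4 called members, *Il1rn* at 2.53, *Il1r2* at 2.99, *Il33* at 3.97 and *Il34* at 1.70 on the log2 scale, with edgeR adjusted p-values of 0.00959, 0.00145, 0.000896 and 0.022. *Il1r1* (-0.66, edgeR adjusted p = 0.45) and *Csf1* (-0.33, edgeR adjusted p = 0.417) had values below 0 within tdT+ cells, where 8 of the 10 were above it, and values above 0 within tdTneg cells (1.23, edgeR adjusted p = 0.273, for *Il1r1*). The call of *Il34* was lost when tdT+CD49f+CD34+ replicate 1 was left out (1.31, edgeR adjusted p = 0.052). Within tdTneg cells the same 4 and also *Il1b* and *Csf1* rose, 6 of 10 where 4.74% of all genes were called and 3.29% called higher. All members but *Il1a* lay higher without overlap, 9 of 10, where 46.3% of all genes did not overlap and 19.9% lay higher. The log2 fold changes were 3.79 for *Il33*, 3.07 for *Il1b*, 3.05 for *Il1rn*, 2.30 for *Il1r2*, 1.49 for *Il34* and 1.44 for *Csf1*, at edgeR adjusted p-values between 0.00837 and 0.0374. In the same tdTneg comparison the 4 endothelial markers summed to 1310 and 1414 CPM against 23.2 to 80.3 CPM, and the 8 Langerhans and myeloid cell markers to 479 and 1057 CPM against 11.1 to 122 CPM (median log2 fold change 3.90, 3 called higher, 6 without overlap). The 6 fibroblast markers were all above 0 (median log2 fold change 0.82, 0 called, 2 without overlap). The part of these lists in the rise of *Csf1*, *Il1b* and the other members was not tested. A fit with the replicate block did not call *Il34* within tdTneg cells (edgeR adjusted p = 0.0535). The tdTneg comparison rests on 2 CD49f+CD34+SCA-1+ libraries. Without replicate 1 of them, which leaves 1, these 6 had log2 fold changes of 0.91 to 3.63. None of them kept its call there, and calls over all genes fell as well. Without tdTneg CD49f+CD34+ replicate 3 only *Il1rn* and *Il33* were called. In that fit 216 of 20118 genes were called, against 963 of 20307 in the fit to all libraries. *Il1b* was also lost without tdTneg CD49f+CD34+ replicate 1, *Il34* without replicate 1 or 2 of that group or tdT+CD49f+CD34+SCA-1+ replicate 1 or 3, and *Il1b* and *Csf1* without tdTneg CD49f+CD34+SCA-1+ replicate 2.

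**Figure D3:**
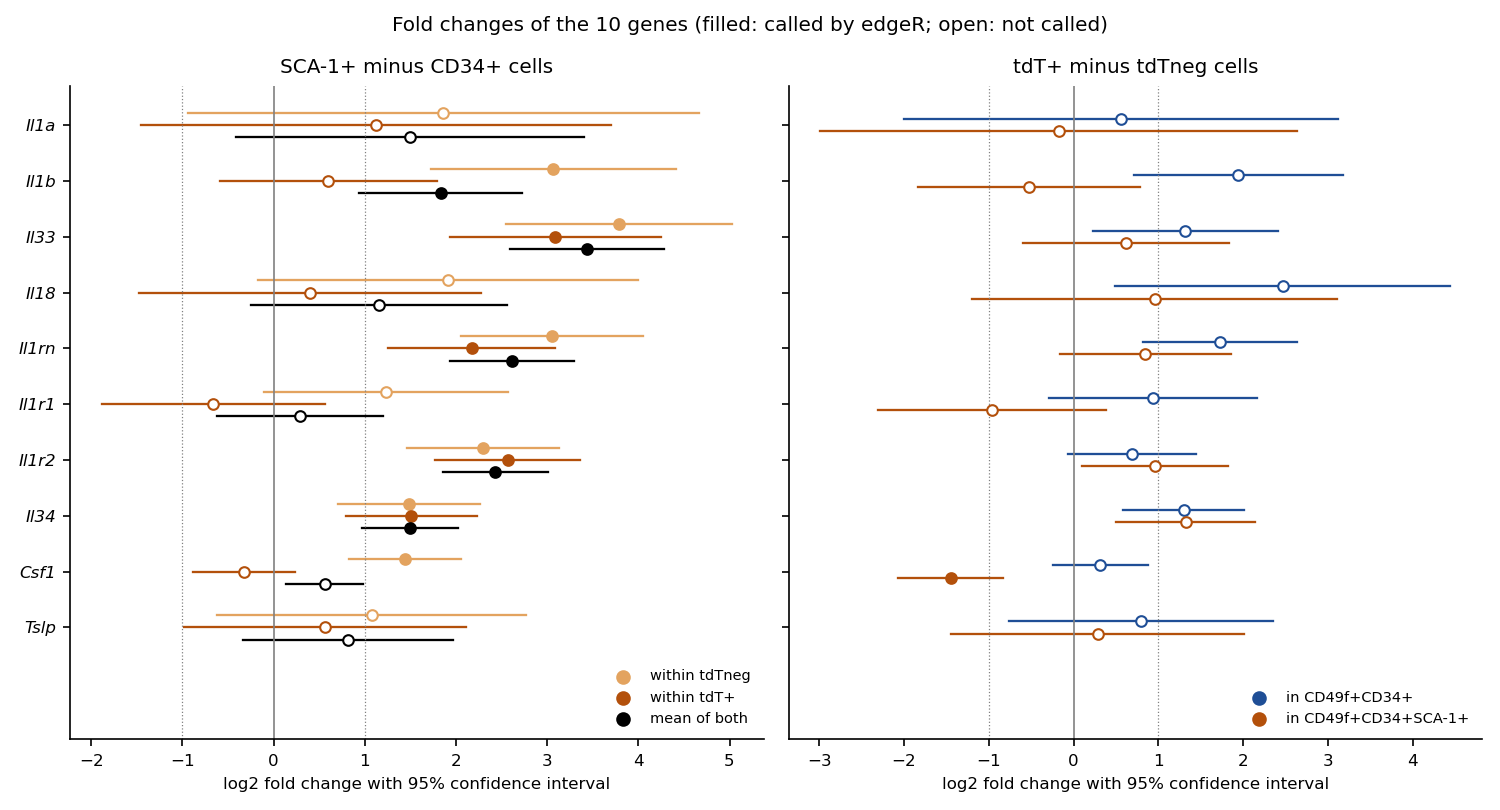
Log2 fold changes with 95% confidence intervals from edgeR for the 10 genes between the populations (left) and between tdT+ and tdTneg cells (right), filled where called (adjusted p under 0.05, log2 fold change beyond 1 in size) and open otherwise, with dotted lines at -1 and 1. *Il33*, *Il1rn*, *Il1r2* and *Il34* are filled in all 3 population comparisons, and *Csf1* is the only filled point on the right.

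Levels were compared between the genes as CPM per kilobase of exon. In tdT+CD49f+CD34+SCA-1+ cells the order began with *Il33* (96.8 ± 38.8, SD, n = 3), *Il1r2* (60.9 ± 11.2), *Il34* (50.6 ± 12.2) and *Il1rn* (22.9 ± 0.767), where the ranges of the first 3 overlapped with those of their neighbours, although *Il33* lay above *Il1r2* within each of the 3 libraries, and the range of *Il1rn* lay below that of *Il34*. In tdTneg CD49f+CD34+SCA-1+ cells *Il33* (62.9 ± 8.17, SD, n = 2) lay above *Il1r2* (41.1 and 21.3, mean 31.2) in both libraries. In tdTneg CD49f+CD34+ cells *Il1r1* (8.07 ± 3.71, SD, n = 3), *Il34* (7.22 ± 1.82), *Csf1* (6.56 ± 1.46) and *Il1r2* (6.37 ± 1.28) led and did not differ beyond their spread, followed by *Il33* at 4.56 ± 1.22. *Il34* led in tdT+CD49f+CD34+ cells (17.8 ± 4.92, SD, n = 3), beside *Il1r1* at 15.4 ± 9.93.

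Ratios within a library, which do not depend on its normalization but can depend on its mixture of cells, were highest in tdT+CD49f+CD34+SCA-1+ cells. Per kilobase, the ratio of decoy to signalling receptor (*Il1r2* over *Il1r1*) was 6.47, 9.53 and 4.50 in these 3 libraries, against 2.00 and 1.23 in tdTneg CD49f+CD34+SCA-1+ and 0.379 to 1.54 in CD49f+CD34+ libraries. Antagonist over agonists (*Il1rn* over the sum of *Il1a* and *Il1b*) was 3.06, 2.86 and 2.48, against 2.11 and 0.71 and a range of 0.56 to 1.92. *Il34* over *Csf1* was 8.04, 7.34 and 7.77, against 1.44 and 0.80 and a range of 0.874 to 3.42. In each of the 3 ratios the tdT+CD49f+CD34+SCA-1+ libraries lay above all 8 others. The ratios are given as a description, without a test, and ratios of other pairs of genes were not computed. The 4 endothelial markers summed to 25.6 to 49.8 CPM in the tdT+ and to 1310 and 1414 CPM in the tdTneg CD49f+CD34+SCA-1+ libraries. For the 5 keratinocyte markers these sums were 30016 to 35187 and 21140 to 24679 CPM. The part of both lists in the ratios was not tested.

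**Figure D4:**
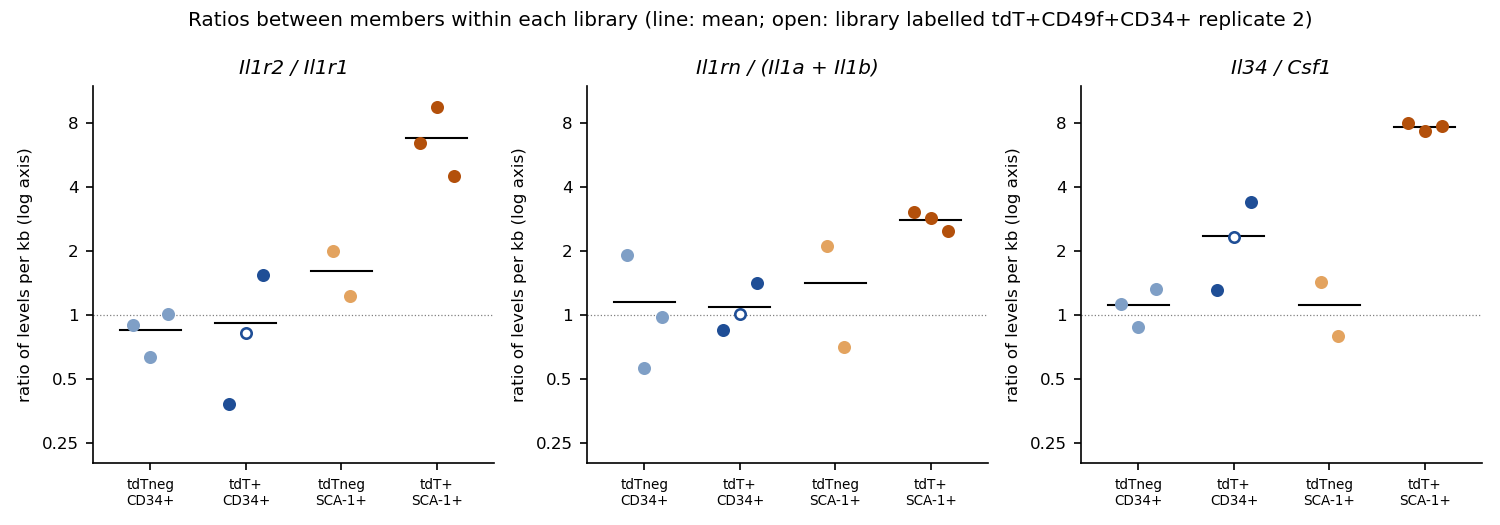
Ratios of levels per kilobase of exon within each library on a log axis, for *Il1r2* over *Il1r1*, *Il1rn* over *Il1a* plus *Il1b*, and *Il34* over *Csf1*, with 1 point per library, a line at the group mean, a dotted line at 1 and the one labelled tdT+CD49f+CD34+ replicate 2 open. The 3 tdT+CD49f+CD34+SCA-1+ libraries are the highest in each panel, between 2.48 and 9.53.

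The next question was whether tdT+ cells differ from tdTneg cells of the same population. Among CD49f+CD34+ cells 0 of the 10 genes were called by edgeR, where 0.00985% of all genes were, and 5 had an unadjusted p under 0.05, where 8.42% of all genes did. DESeq2 called 3, *Il1b*, *Il1rn* and *Il34*, where it called 1.83% of all genes. All 10 log2 fold changes were above 0, with a median of 1.12 against -0.03 over all genes. *Il1rn* (28.1 ± 13.0 against 8.45 ± 4.02 CPM, SD, n = 3 each) and *Il34* (34.8 ± 9.64 against 14.1 ± 3.57 CPM, SD, n = 3 each) did not overlap between tdT+ and tdTneg cells, where 16% of all genes did not and 5.07% lay higher. Their log2 fold changes were 1.73 (standard error 0.41, edgeR adjusted p = 0.231) and 1.30 (standard error 0.32, edgeR adjusted p = 0.255). For *Il1b*, at 8.39 ± 4.48 against 2.18 ± 1.28 CPM (SD, n = 3 each), the log2 fold change was 1.95 (standard error 0.55, edgeR adjusted p = 0.353), with tdT+ replicate 3 below tdTneg replicate 2. *Il18* had 13.2, 4.23 and 0.772 CPM in tdT+ and 1.43, 0.608 and 1.24 CPM in tdTneg cells. The groups overlapped, and the log2 fold change of 2.47 did not pass (edgeR adjusted p = 0.494). Leaving out tdT+CD49f+CD34+ replicate 1, the library at 13.2 CPM, gave 1.19 (edgeR adjusted p = 0.864).

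With the library labelled tdT+CD49f+CD34+ replicate 2 left out, the log2 fold changes in CD49f+CD34+ cells were 1.37 in place of 1.73 for *Il1rn*, 1.11 in place of 1.30 for *Il34*, 0.43 in place of 1.32 for *Il33* and 0.27 in place of 0.69 for *Il1r2*. Those of *Il1a* (-1.53) and *Tslp* (-0.14) turned below 0, while *Il18* stood at 2.67 and *Il1b* at 1.76. In that library *Il33* (62.9 CPM), *Il1r2* (29.6 CPM), *Il1rn* (40.5 CPM), *Il34* (43.4 CPM), *Il1a* (3.53 CPM) and *Tslp* (5.78 CPM) were the highest of the 6 CD49f+CD34+ libraries. The 4 leukocyte markers summed to 51.4 to 108 CPM in tdT+ and 6.22 to 33.2 CPM in tdTneg CD49f+CD34+ libraries, and the 2 suprabasal keratins to 901 to 3264 and 164 to 1144 CPM. The 7 T cell markers summed to 39.5 to 82.6 and 22.5 to 29.6 CPM, with a median log2 fold change of 3.28, 6 of 7 higher without overlap, 6 at an unadjusted p under 0.05 and 0 called by edgeR. For the 8 Langerhans and myeloid cell markers the sums were 48.3 to 571 and 11.1 to 122 CPM, with a median of 2.58, 3 of 8 higher without overlap, 4 at an unadjusted p under 0.05 and 0 called by edgeR. The 5 keratinocyte markers went the other way, all below 0 (median -0.36), with 3 lower without overlap and 0 called by edgeR. The part of these lists in the members' values was not tested.

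Among CD49f+CD34+SCA-1+ cells *Csf1* was the only member called, and it was lower in tdT+ cells, where 2.31% of all genes were called and 2.06% called lower. It had 38.4, 26.3 and 38.7 CPM in tdT+ and 98.3 and 90.1 CPM in tdTneg cells, without overlap (log2 fold change -1.45, standard error 0.28, edgeR adjusted p = 0.026). In CD49f+CD34+ cells it had 50.4, 50.2 and 28.9 CPM with tdT and 42.9, 33.6 and 27.5 CPM without, so that the tdTneg CD49f+CD34+SCA-1+ libraries were the only ones above 50.4 CPM. The 4 endothelial markers summed to 1310 and 1414 CPM in these 2 libraries and to 25.6 to 49.8 CPM in the 3 tdT+CD49f+CD34+SCA-1+ libraries, with none of the 4 at 0 in any library, and to 4.74 to 80.3 CPM in the CD49f+CD34+ libraries besides 337 CPM in the one labelled tdT+CD49f+CD34+ replicate 2. The 8 Langerhans and myeloid cell markers summed to 479 and 1057 CPM in the tdTneg and 284 to 357 CPM in the tdT+ CD49f+CD34+SCA-1+ libraries. Their median log2 fold change was -1.45, with 8 of 8 below 0, 2 of 8 lower without overlap, and 0 at an unadjusted p under 0.05 or called by edgeR. The 6 fibroblast markers had a median of -1.32, with 6 of 6 below 0, 1 lower without overlap, and 0 called by edgeR. The part of these lists in the value of *Csf1* was not tested. The call was lost in each of the 5 fits that left out a CD49f+CD34+SCA-1+ library, with edgeR adjusted p-values from 0.0617 to 0.146 and log2 fold changes from -1.55 to -1.35.

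The other CSF1 receptor ligand stood the other way. *Il34* had 99.2 ± 24 CPM (SD, n = 3) in tdT+ and 39.6 ± 18.2 CPM (SD, n = 2) in tdTneg CD49f+CD34+SCA-1+ cells, without overlap, as for 33% of all genes (log2 fold change 1.32, standard error 0.37, edgeR adjusted p = 0.111, DESeq2 adjusted p = 0.00712). DESeq2 called 2 members here, *Csf1* and *Il34*, where it called 6.48% of all genes. *Il1r2* (116 ± 21.3 against 59.6 ± 26.7 CPM) and *Il1rn* (126 ± 4.25 against 70.2 ± 10.2 CPM, SD, n = 3 and 2) did not overlap either, with log2 fold changes of 0.96 and 0.85 (edgeR adjusted p = 0.28 and 0.443). In the same comparison the 7 T cell markers all lay higher in tdT+ cells without overlap (4 called, median log2 fold change 2.95), as did 3 of 4 leukocyte markers (0 called). The 5 keratinocyte markers were all above 0 too (median 0.39, 3 without overlap, 0 called), with sums of 30016 to 35187 against 21140 to 24679 CPM. Both suprabasal keratins were above 0 (median 0.86, 1 without overlap, 0 called). The part of these lists in the values was not tested. *Il1r1* lay the other way, lower in tdT+ cells without overlap, at 62.1 ± 22.9 against 121 ± 14.3 CPM (SD, n = 3 and 2, log2 fold change -0.96, edgeR adjusted p = 0.535). So did all 4 endothelial markers (median log2 fold change -5.20, 1 called), and their part in the value of *Il1r1* was not tested. Of the 10, 3 had an unadjusted p under 0.05, where 14.6% of all genes did. The effects of tdT in *Il33* (0.62), *Il18* (0.96), *Tslp* (0.28), *Il1a* (-0.17) and *Il1b* (-0.52) came with overlapping libraries and edgeR adjusted p-values from 0.69 to 0.985.

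The effect of tdT was then compared between the populations in the same fit, where 0.389% of all genes were called. None of the 10 passed in edgeR, 3 had an unadjusted p under 0.05, where 12.4% of all genes did, and DESeq2 called 2, *Csf1* and *Il1b*, where it called 4.38% of all genes. For *Csf1* the difference between the log2 fold changes was -1.77 (standard error 0.38, edgeR adjusted p = 0.0841, DESeq2 adjusted p = 0.000339), and for *Il1b* -2.47 (standard error 0.80, edgeR adjusted p = 0.237, DESeq2 adjusted p = 0.0377). Leaving out tdT+CD49f+CD34+ replicate 3 also gave a call of *Csf1* (-1.99, edgeR adjusted p = 0.0196). For *Il34* the difference was 0.02 (95% confidence interval -1.04 to 1.09), which leaves room for a 2-fold difference in either direction. Size factors by the RLE method moved the median of all genes in this comparison by -0.12 on the log2 scale, more than the *Il34* value itself.

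Genes around the 10 were read from lists of the pathway, beside 11.6% of all genes called in this comparison and 4.77% called higher. Of the other interleukin-1 family ligands, 3 of 4 tested rose in CD49f+CD34+SCA-1+ cells (median log2 fold change 3.47, against -0.09 over all genes): *Il1f9*, interleukin-36γ, from 1.58 to 11.6 CPM (3.08, edgeR adjusted p = 0.00238), *Il1f5*, the interleukin-36 receptor antagonist, from 4.57 to 18.6 CPM (2.22, edgeR adjusted p = 0.00383), and *Il1f10*, at under 1 CPM in every library (edgeR adjusted p = 0.0494). With the replicate block, and in 9 of the 11 fits without 1 library, 2 ligands were called. Of 7 receptors and binding proteins 2 rose, *Il1rl2*, the interleukin-36 receptor, with 118 to 261 against 57.2 to 91.0 CPM (1.20, edgeR adjusted p = 0.00112), and *Il18r1*, the interleukin-18 receptor chain (1.17, edgeR adjusted p = 0.0205). Without tdTneg CD49f+CD34+SCA-1+ replicate 1 only 1 of these was called. Of 5 receptors of the other members *Ptprz1*, a phosphatase that also binds interleukin-34, rose by 1.96 (edgeR adjusted p = 0.0069). Of 16 signalling genes 3 rose: *Irak3*, a brake on interleukin-1 receptor signalling (1.41, edgeR adjusted p = 0.00164), *Irak2* (1.23, edgeR adjusted p = 0.0111) and *Nfkbiz*, a nuclear cofactor of NF-kB, with 414 to 533 against 175 to 266 CPM (1.07, edgeR adjusted p = 0.000784). The median of the signalling list, 0.31, compares with 1.5 for the 10 members and -0.09 for all genes.

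Of 12 tested genes of processing and release 1 was called higher, a share near the 4.77% of all genes. *Casp4*, the mouse sensor caspase also known as caspase-11, rose from 10.2 to 49.8 CPM (2.51, edgeR adjusted p = 0.000148), and the interleukin-1β processing caspase *Casp1* stood at 0.61, under the fold threshold (edgeR adjusted p = 0.0235). Of 15 other cytokines 3 rose and 1 fell: *Osm* (3.06, edgeR adjusted p = 0.0434), *Tnf* with 5.91 to 13.2 against 0.267 to 4.23 CPM (2.95, edgeR adjusted p = 0.000803), *Flt3l* (1.03, edgeR adjusted p = 0.00876) and, lower, *Il7* (-1.04, edgeR adjusted p = 0.0428), whose call was lost in 9 of the 11 fits without 1 library. Of 9 genes known to respond to interleukin-1, 4 rose and 1 fell. *Mmp3* rose from 3.13 to 51.7 CPM (4.10, edgeR adjusted p = 0.00358), *Cxcl2* by 2.84 (edgeR adjusted p = 0.00775), *Ccl20* by 2.04 (edgeR adjusted p = 0.0371) and *S100a9*, which is also the neutrophil marker called above, by 1.72 (edgeR adjusted p = 0.0474). *Lcn2*, the lower one (-5.63, edgeR adjusted p = 0.0423), had 597, 305 and 0.936 CPM in tdT+ and 4.50, 257 and 3.66 CPM in tdTneg CD49f+CD34+ libraries, so 3 of these 6 carried it. The lower call was lost with the replicate block and in 8 of the 11 fits without 1 library. Between tdT+ and tdTneg cells 0 genes of the 7 lists were called in either population in the edgeR fit of all libraries. Under the alternatives at most 2 genes of a list were called higher among CD49f+CD34+ cells, both of processing and release, and at most 3 lower among CD49f+CD34+SCA-1+ cells, of the other cytokines. In the fit leaving out the library labelled tdT+CD49f+CD34+ replicate 2, 3 ligands, 2 receptors and binding proteins, 1 receptor of the other members, 3 signalling genes, 1 processing gene, 6 other cytokines and 3 responsive genes were called, all higher. Without any other single library 1 to 3 of the other cytokines and 2 to 4 of the responsive genes were called higher. Over all 11 omissions, 9 gave fewer higher calls among the other cytokines and 10 fewer among the responsive genes than the 3 and 4 of the fit to all libraries, with 1 cytokine left without tdT+CD49f+CD34+ replicate 1, tdTneg CD49f+CD34+ replicate 3 or tdTneg CD49f+CD34+SCA-1+ replicate 1.

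**Figure D5:**
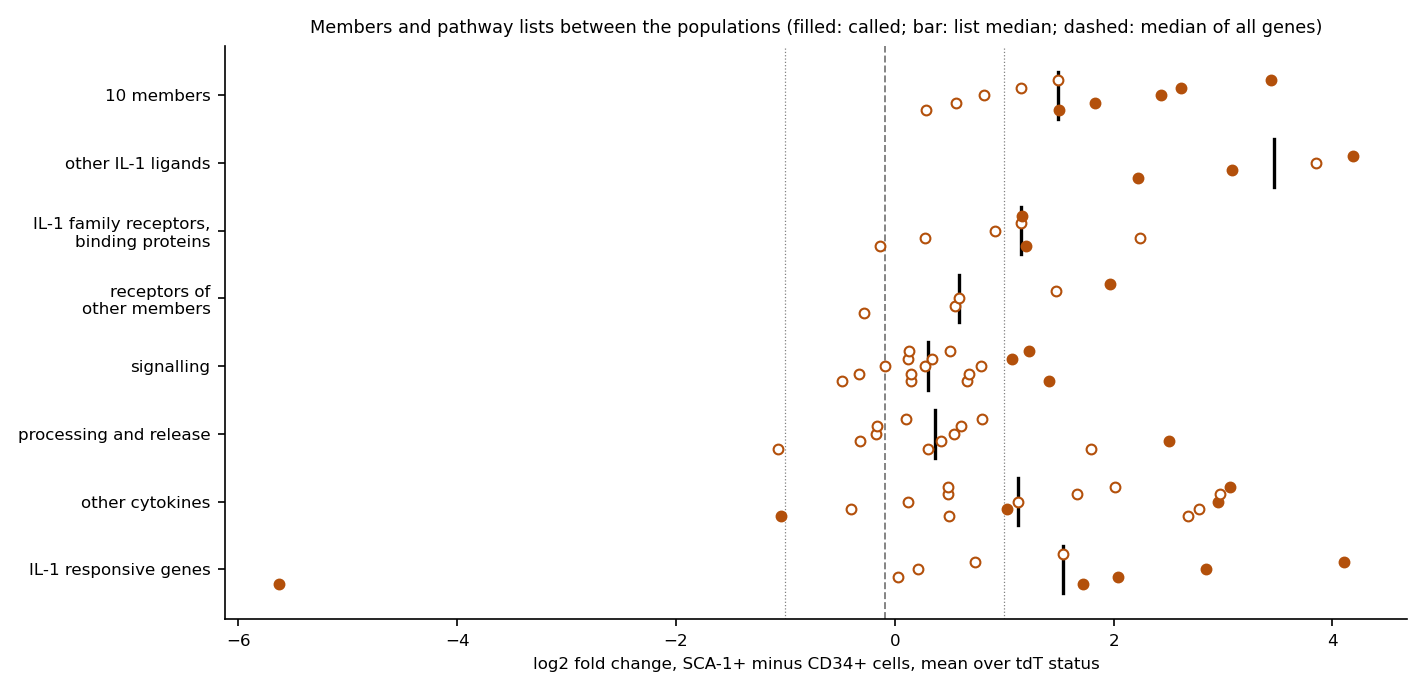
Log2 fold changes of the SCA-1+ over the SCA-1neg population, averaged over tdT status, for the 10 members and 7 lists of pathway genes, with 1 point per gene, filled where called, a black bar at the median of the list and a dashed line at the median of all genes (-0.09). The members have their median at 1.5, the other interleukin-1 family ligands at 3.47 and the signalling genes at 0.31.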

How the data were processed

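RNA of 11 libraries of sorted epidermal cells was analysed from tables of counts per gene. As deposited, the counts were made by the authors with STAR on mm10 and featureCounts on the Ensembl annotation, from reads demultiplexed with bcl2fastq 2.20.0.422, per the submitters' processing notes and the methods, and are not normalized. The strand setting is not given in the sources used here. Groups and replicate numbers came from the sample labels, where nothing says more than that 2 mice were pooled per library. The main fit had no term for mice shared between groups. Its p-values measure the spread between libraries within groups, with the libraries taken as independent. The row outside the Ensembl genes, at most 0.0307% of counts, was kept out of totals and tests.

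All 11 libraries were fitted with 1 mean per group in edgeR 4.0.16 (R 4.3.3; TMM, filterByExpr, glmQLFit, glmQLFTest) across 20307 genes, and calls needed a Benjamini-Hochberg adjusted p under 0.05 with a log2 fold change beyond 1 in size. The common biological coefficient of variation was 0.608. Depth was 17409131 to 46542177 counts, and intervals of fold changes come from the fit over libraries. Fits were tested on simulated data. Alternatives were DESeq2 1.42.0 (the authors named version 1.18.1), RLE size factors, CPM without TMM, other filters, omission of the fold threshold, a block by replicate number, fits of just those groups in a comparison and omission of each library. The omission of the library labelled tdT+CD49f+CD34+ replicate 2 as a doubted library and the endothelial sums beside *Csf1* were chosen after seeing the data. For the block, libraries with the same number were taken to come from the same mice, which the labels do not state. Over 15 pairs with the same number the correlation of deviations from group means had a median of 0.083 (-0.415 to 0.589). Over 30 other pairs it was -0.023 (-0.602 to 0.513). Deviations cancel out within a group, so these pairs are not independent and the medians cannot decide whether mice were shared. Gene lengths and positions came from GENCODE M21 on GRCm38 and promoters from RefSeq. Figures used matplotlib 3.10.9. The members, lists and tests were chosen with earlier results of these data known. All members are named, and of the lists the called genes, at most 3 higher and 3 lower per list. *Casp1* and *S100a9* were named after their values were seen.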

Additional observations from a re-analysis of the deposited data

Results flagged for a closer look

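The 1 row without an Ensembl gene ID has no description in the files and entered no comparison. It held more counts in 5 of 6 tdT+ libraries (133 to 307 CPM of the total count) than in any of the 5 tdTneg libraries (2.54 to 4.89 CPM). It was flagged as a signal in data outside the comparisons. The remaining tdT+ library, labelled tdT+CD49f+CD34+ replicate 2, held 2.05 CPM. No test of a single library against the others was run.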

How the results depend on the processing

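Of the log2 fold changes of the 10 genes under the alternatives, 991 kept their direction and their side of the threshold, 26 lost a call, 12 gained one and 25 changed sign. The 991 include those without the fold threshold, which reused the values of the main fit, and genes called in neither fit. The 5 calls between the populations as the mean over tdT status were made in every fit with all 11 libraries (4 to 5 without a library, *Il1b* being the one lost). Among omissions that left at least 2 libraries in every group, 3 to 4 members were called within tdT+ cells, where 1174 to 2233 of all genes were. Within tdTneg cells 2 to 6 were, where 216 to 1300 of all genes were. Without tdTneg CD49f+CD34+SCA-1+ replicate 1, which leaves 1 library in that group, no member kept its call within tdTneg cells. For tdT+ against tdTneg CD49f+CD34+ cells DESeq2 called 3 members and keeping genes with at least 1 count anywhere gave 2. Among CD49f+CD34+SCA-1+ cells both called 2, and 0 to 1 were called without a library. For the difference between the populations DESeq2 called 2, the filter of at least 1 count 1, that of 10 counts per library 1, and 0 to 1 were called without a library. With the replicate block *Il34* was not called within tdTneg cells (5 members in place of 6), and no other call of a member changed. A fit of just the tdTneg groups lost the same call. The block turned *Il1a* to 0.91 in CD49f+CD34+SCA-1+ cells and to 0.63 in the difference between the populations. There the value of *Il34* was -0.10 by DESeq2 and by RLE size factors, -0.044 and -0.13 with the filters of at least 1 and of at least 10 counts, and -0.0474 with the block. Without a library, log2 fold changes crossed 0 for *Il18* within tdT+ cells (-0.37 to 1.68), for *Il1a* (-1.53 to 1.84) and *Tslp* (-0.14 to 1.20) in CD49f+CD34+ cells, for *Il1a* (-0.95 to 1.53), *Il1b* (-0.98 to 0.0813) and *Tslp* (-0.25 to 0.55) in CD49f+CD34+SCA-1+ cells, and in the difference between the populations for *Il1a* (-2.02 to 1.35), *Il1r2* (-0.16 to 0.83), *Il33* (-1.16 to 0.19), *Il34* (-0.42 to 0.60) and *Tslp* (-1.04 to 0.42). The cause was not tested. Counts over all genes moved more: for tdT+ against tdTneg CD49f+CD34+ cells 2 genes were called in the edgeR fit, 332 by DESeq2 and 166 with the filter of at least 1 count, and for the difference between the populations 79, 777 and 568. Among CD49f+CD34+SCA-1+ cells they were 470, 1126 and 885. Within tdTneg cells DESeq2 called 2071 genes in place of 963 and within tdT+ cells 3143 in place of 1715. Fits without a tdTneg CD49f+CD34+SCA-1+ library leave 1 in that group, assumed to vary like the other groups. *Il1a* did not pass the filter of 10 counts per library. No group mean moved by more than its SD when CPM was taken without TMM.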

Other observations

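*Il6* and *Csf3*, cytokine genes outside the 10 members named after their values were seen, were highest in 3 libraries. *Il6* had 216 and 145 CPM in tdTneg CD49f+CD34+SCA-1+ cells and 88.1 CPM in the library labelled tdT+CD49f+CD34+ replicate 2, against 0.165 to 8.01 CPM in the other 8 libraries. *Csf3*, the granulocyte colony-stimulating factor gene, had 325, 318 and 136 CPM in those 3 libraries and 0.276 to 19.6 CPM elsewhere. The 4 endothelial markers summed to 1310, 1414 and 337 CPM in these libraries and to at most 80.3 CPM in the other 8. The 8 Langerhans and myeloid cell markers summed to 479, 1057 and 571 CPM in these libraries and to at most 357 CPM in the other 8. The part of both lists in these values was not tested. Neither *Il6* nor *Csf3* was called between the populations (edgeR adjusted p = 0.125 and 0.123). *Il1rl1*, which encodes the receptor of interleukin-33, had 0 to 0.852 CPM in 10 libraries and 5.15 CPM in tdTneg CD49f+CD34+SCA-1+ replicate 2, while *Il33* had 10.6 to 404 CPM.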
